A study of Mus musculus with 22 samples.

Results

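Paneth cells sit at the base of the small intestinal crypts and release granules of antimicrobial proteins into the crypt lumen. They also supply growth signals to the stem cells that lie between them. The terminal ileum holds many of these cells, and their granule proteins act on bacteria in different ways, by cutting cell walls, membrane lipids or RNA, by binding sugars, or by activating other peptides.

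The results below are about 5 Paneth cell genes, Mmp7, Pla2g2a, Lyz1, Ang4 and Itln1, out of 18193 genes measured. They were taken by symbol, and where several probe sets of the array carried the symbol, the brightest one on average over the 22 arrays was used. RNA came from terminal ileum, and the mice were NOD, a strain prone to autoimmune diabetes, and each array held 1 sample. PAT mice had received antibiotics in pulses at therapeutic doses and STAT mice antibiotics at a sub-therapeutic level, while controls carried the label control alone. There were 3 PAT females and 5 PAT males, 3 STAT females and 3 STAT males, and 3 control females and 5 control males. The sources used here do not give the drugs, the doses, the ages or the times of treatment. They do not state that each sample is a separate animal either, so p-values reflect the spread among samples alone, and part of it may be technical.

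Values are log2 expression levels, on which a difference of 1 is a 2-fold change, and the number of arrays limits the precision. Some genes of the tissue in the label were bright: the ileal bile acid binding protein Fabp6 lay between 13.93 and 14.62. The bile acid transporter Slc10a2 lay between 9.61 and 11.98. The ileal hormone gene Fgf15 varied widely, from 5.11 to 11.36. Of the pancreatic enzymes measured, Cpa1 lay between 4.86 and 5.89, and the brightest, Cela1, between 7.36 and 8.25. The alpha-defensin Defa31, a defining Paneth cell product, lay between 14.79 and 14.96, and 14.96 was the highest gene level in the table. In 1 measure of RNA integrity 2 arrays stood apart: the log2 difference between the 3-prime and 5-prime beta-actin control probe sets was 0.59 in STAT male 2 and 0.6 in STAT male 3, against 0.28 to 0.42 on the others. The same difference for Gapdh did not set them apart, at -0.04 and -0.08, against -0.03 in PAT female 1.

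Each gene has its own place in the genome (RefSeq, GRCm38.p6). Mmp7 lies on chromosome 9 from 7692090 to 7699585, Pla2g2a on chromosome 4 from 138831857 to 138835189 and Lyz1 on chromosome 10 from 117287795 to 117292868. Ang4 lies on chromosome 14 from 51763892 to 51773590 and Itln1 on chromosome 1 from 171518123 to 171535325. RefSeq lists Pla2g2a as a transcribed pseudogene, in the C57BL/6J strain of the assembly, which carries a known disruption of the gene; its sequence in NOD was not analysed here. The genes are thus not neighbours, and the 100 bases before the start of 4 of the 5 genes, matched by symbol in the RefSeq table, are shown because the genes moved together across the arrays, as described below. Capitals mark a TATAAA box in Mmp7 and, in Itln1, CATAAA, the reverse complement of TTTATG, a core bound by the intestinal factors of the Cdx family. CATAAA is also a single letter away from TATAAA, and binding to it was not tested. Only exact copies of the letters sought are marked, so near matches to TATAAA in the other windows are not.
Mmp7, chr9:7691990-7692089, plus strand: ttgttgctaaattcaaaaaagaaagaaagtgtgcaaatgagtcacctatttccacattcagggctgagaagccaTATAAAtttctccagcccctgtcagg
Lyz1, chr10:117292869-117292968, minus strand: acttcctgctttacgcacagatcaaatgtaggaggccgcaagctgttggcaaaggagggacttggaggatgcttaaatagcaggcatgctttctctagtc
Ang4, chr14:51773591-51773690, minus strand: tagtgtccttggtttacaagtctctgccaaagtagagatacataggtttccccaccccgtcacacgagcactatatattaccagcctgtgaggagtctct
Itln1, chr1:171535295-171535394, minus strand: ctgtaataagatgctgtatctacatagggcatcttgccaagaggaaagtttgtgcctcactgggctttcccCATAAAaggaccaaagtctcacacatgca

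TATAAA stood at positions -26 to -21 before the Mmp7 start, and 5.56% of 32851 promoter windows of the same length held it on either strand. TTTATG stood on the opposite strand at positions -29 to -24 of Itln1, and 4.33% of windows held it. The cores CTTTGAT and CTTTGTT, bound by the TCF and LEF factors of Wnt signalling and held by 1.21% and 1.88% of windows, were found in 0 of the 4 windows on either strand. Mmp7 has a second listed start, whose window is not shown. The start used for Itln1 lies inside the outer bound of the gene given above, so its window overlaps that end of the gene. A match of letters is a description and not a site shown to be bound.

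Mmp7 encodes matrilysin, the protease that activates alpha-defensins in mouse Paneth cells. In males, its level was 11.56, 11.58, 11.43, 12.12 and 11.74 on the PAT arrays, 11.7, 12.44 and 12.3 on the STAT arrays and 12.39, 12.55, 11.96, 12.41 and 11.81 on the control arrays. In females, it was 12.45, 12.07 and 11.96 in PAT, 12.37, 12.31 and 11.88 in STAT and 12.15, 12.15 and 11.78 in controls. Of the PAT males 4 lay below every control male, and PAT male 4 lay inside the control range. The means of the other groups ran from 12.03 ± 0.21 in control females (SD, n = 3) to 12.22 ± 0.32 in control males (SD, n = 5), closer together than their SDs, and PAT males had the lowest mean, 11.68 ± 0.26 (SD, n = 5).

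Pla2g2a encodes a secreted phospholipase that breaks the membrane lipids of Gram-positive bacteria, and it varied most among the 5 genes, from 7.92 to 9.9. In males, its level was 8.29, 8.3, 7.92, 8.71 and 8.35 in PAT, 8.57, 9.01 and 9.08 in STAT and 9.24, 9.9, 8.82, 9.21 and 8.5 in controls. In females, it was 9.31, 8.71 and 8.54 in PAT, 8.66, 8.77 and 8.73 in STAT and 8.77, 8.92 and 8.28 in controls. Again 4 PAT males lay below every control male, with PAT male 4 above the lowest of them. Control male 2 held the highest value of all arrays and PAT male 3 the lowest.

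Lyz1 encodes the Paneth cell lysozyme, which cuts bacterial cell walls. In males, it was 14.24, 14.47, 14.24, 14.47 and 14.21 in PAT, 14.12, 14.61 and 14.59 in STAT and 14.54, 14.55, 14.47, 14.56 and 14.33 in controls. In females, it was 14.58, 14.36 and 14.28 in PAT, 14.43, 14.46 and 14.32 in STAT and 14.5, 14.35 and 14.24 in controls. Of the PAT males 3 lay below all control males, but the whole range over 22 arrays, 14.12 to 14.61, was the narrowest of the 5 genes. That range lay close to the highest gene level in the table, where array signals can saturate, which was not tested.

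Ang4 encodes an angiogenin family ribonuclease that kills bacteria. In males, it was 12.48, 12.85, 12.43, 13.05 and 12.59 in PAT, 12.22, 13.32 and 13.17 in STAT and 13.09, 13.24, 13.14, 13.2 and 12.81 in controls. In females, it was 13.43, 12.73 and 12.69 in PAT, 13.15, 13.08 and 12.89 in STAT and 13.13, 12.92 and 12.63 in controls. The PAT and control males overlapped, with 3 PAT males below the control range, and the highest and the lowest array were PAT female 1 and STAT male 1.

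Itln1 encodes intelectin-1, a lectin that binds sugars of microbial surfaces and is also made by goblet cells. In males, it was 13.04, 13.27, 13.02, 13.43 and 13.09 in PAT, 12.81, 13.72 and 13.63 in STAT and 13.61, 13.74, 13.56, 13.51 and 13.16 in controls. In females, it was 14.07, 13.39 and 13.28 in PAT, 13.67, 13.58 and 13.36 in STAT and 13.62, 13.5 and 13.19 in controls. PAT female 1 and STAT male 1 were again the highest and the lowest array, and 3 PAT males lay below all control males. PAT males had the lowest group mean of each of the 5 genes, and control males the highest of all but Itln1, which was highest in PAT females at 13.58 ± 0.42 (SD, n = 3).

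**Figure D1:**
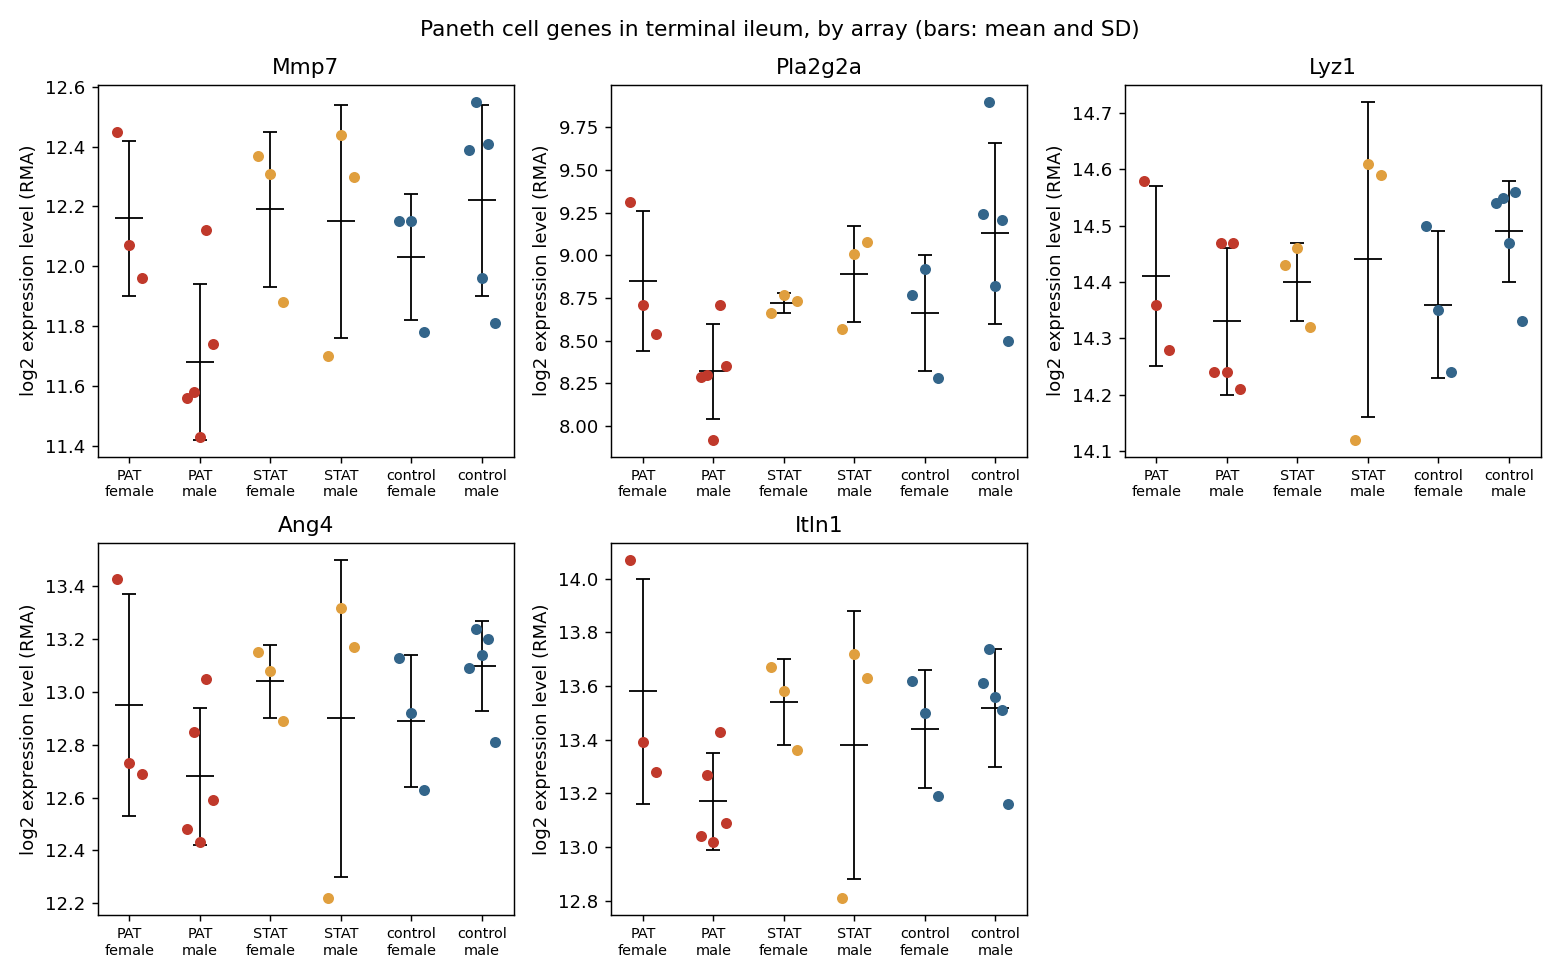
Log2 expression level (RMA) of the 5 Paneth cell genes on each of the 22 arrays, 1 panel per gene with its own vertical scale. Points are arrays, the horizontal line is the group mean and the bars are 1 SD. PAT males have the lowest mean in every panel, from 8.32 for Pla2g2a to 14.33 for Lyz1, and STAT male 1 is the lowest array for Lyz1, Ang4 and Itln1.

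The 5 genes varied together from array to array inside the groups. With each group's mean removed, Pearson's r over 22 arrays ran from 0.68 for Pla2g2a and Lyz1 to 0.97 for Ang4 and Itln1 over the 10 pairs. Lyz1 and Ang4 gave 0.96, Lyz1 and Itln1 0.94, Mmp7 and Itln1 0.86, and Mmp7 and Pla2g2a 0.85. Spearman's rho ran from 0.8 to 0.97. Permutation of the arrays inside their groups gave p between 1e-05 and 0.00054 for r, where 1e-05 is the smallest value the 100000 permutations can give, and the Benjamini-Hochberg adjusted p over the 10 pairs reached at most 0.00054. Without the 2 arrays farthest from the median of the first gene, r ran from 0.73 to 0.96. The genes of a pair share the array, its RNA and its normalization, and no batch is given in the labels, so within-batch values could not be had.

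Lyz1, Ang4 and Itln1 thus formed the tighter trio, and Pla2g2a kept most to Mmp7. The mean of the 5 genes, each centred on its own mean, was highest in control male 2 at 0.48 and PAT female 1 at 0.46, and lowest in PAT male 3 at -0.5 and STAT male 1 at -0.43. Its range was -0.5 to 0.05 over PAT males and -0.19 to 0.48 over control males. Samples of whole ileum cannot tell fewer Paneth cells from less of each RNA per cell.

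**Figure D2:**
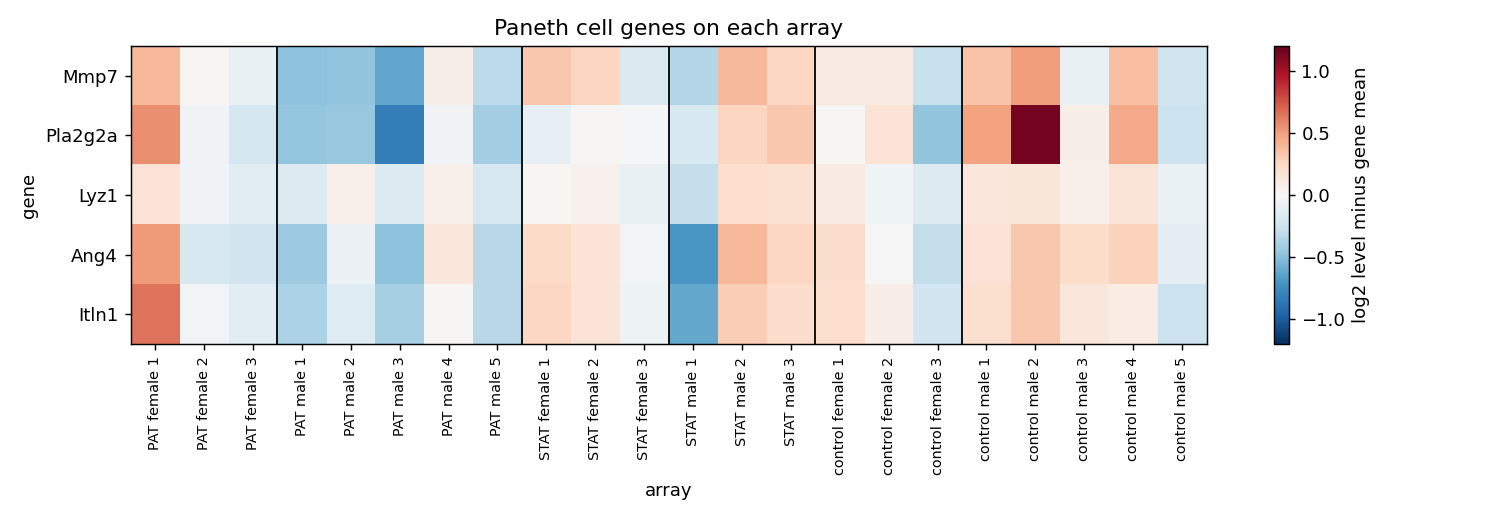
Level of the 5 genes on each array minus the gene's mean over 22 arrays (log2, colour scale), with arrays in columns by group and vertical lines between groups. Whole columns share a colour: PAT female 1 and control male 2 are high for all 5 genes, and PAT male 3 and STAT male 1 are low for all 5.

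Genes with the most similar levels over the 22 arrays, out of 11451 genes whose mean reached 6, included other secreted crypt products. For Itln1 they were the colipase gene Clps (r = 0.96), Ang4 (0.96), the alpha-defensin Defa39 (0.9), Samd5 (0.89) and Lyz1 (0.88). For Ang4 they were Itln1 (0.96), Lyz1 (0.94), Clps (0.93), Defa39 (0.88) and Mmp7 (0.86). For Lyz1 they were Ang4 (0.94), Itln1 (0.88), Clps (0.87), the crypt gene Olfm4 (0.83) and the second lysozyme gene Lyz2 (0.83).

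For Mmp7 the most similar genes were Pla2g2a (0.88), Itln1 (0.88), the secreted protease gene Habp2 (0.86), Ang4 (0.86) and Clps (0.84). For Pla2g2a they were Mmp7 (0.88), Vmac (0.82), the leucyl-tRNA synthetase gene Lars (0.81), Nudt16l1 (0.79) and Wtip (0.77). These correlations are descriptions over arrays that share their groups.

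In PAT males, Mmp7 and Pla2g2a fell, and the other 3 genes had lower means that did not pass the test. Mmp7 averaged 11.68 ± 0.26 in PAT males and 12.22 ± 0.32 in control males (SD, n = 5 each), a log2 difference of -0.54 ± 0.17 (SE), or 1.45-fold lower, with an adjusted p of 0.049 by limma. Pla2g2a averaged 8.32 ± 0.28 in PAT males and 9.13 ± 0.53 in control males (SD, n = 5 each), a log2 difference of -0.82 ± 0.21 (SE), or 1.76-fold lower, with an adjusted p of 0.017 by limma. These 2 of 5 genes passed in a comparison in which 9.02% of all genes were called at an adjusted p under 0.05 and 6.68% of all genes were called as lower, and in which the median log2 difference was -0.42 over the 5 genes and -0.01 over all genes. Of the called genes, 426 were higher and 1215 lower in PAT males, a split that became 592 and 803 when quantile normalization was repeated.

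Ang4, Itln1 and Lyz1 pointed the same way with wider relative error. Ang4 averaged 12.68 ± 0.26 in PAT males and 13.1 ± 0.17 in control males (SD, n = 5 each), a log2 difference of -0.42 ± 0.18 (SE, limma adjusted p = 0.16). Itln1 averaged 13.17 ± 0.18 in PAT males and 13.52 ± 0.22 in control males (SD, n = 5 each), a log2 difference of -0.34 ± 0.17 (SE, limma adjusted p = 0.2). Lyz1 averaged 14.33 ± 0.13 in PAT males and 14.49 ± 0.09 in control males (SD, n = 5 each), a log2 difference of -0.16 ± 0.09 (SE, limma adjusted p = 0.29). All 5 differences were negative, as were 52.4% of those over all genes, and for all 5 the ranges of the groups overlapped, whereas 5.29% of all genes lay lower on every PAT male array than on every control male array. At an unadjusted limma p under 0.05 there were 3 of the 5, and 25.0% of all genes.

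An exact permutation test of 5 against 5 males, two-sided and with a smallest possible p of 0.0079, gave 0.016 for Pla2g2a, 0.024 for Ang4, 0.032 for Mmp7, 0.032 for Itln1 and 0.071 for Lyz1. After Benjamini-Hochberg adjustment over the 40 permutation tests of the study, the lowest value was 0.32. The Mmp7 call was lost on leaving out any 1 of 7 of the 10 arrays, with a limma adjusted p of up to 0.14, and under 6 other settings listed at the end. Among all fits tried, the Pla2g2a call was lost only without control male 2, where its log2 difference was -0.63 and its limma adjusted p 0.052. With a measure of RNA integrity in the model, the Gapdh 3-prime to 5-prime difference, 4 of the 5 genes were called, including Ang4 at -0.68 (limma adjusted p = 0.021) and Itln1 at -0.57 (limma adjusted p = 0.04). The range of that measure was -0.23 to -0.08 over PAT males and -0.26 to -0.2 over control males, and its part in the result was not tested further.

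**Figure D3:**
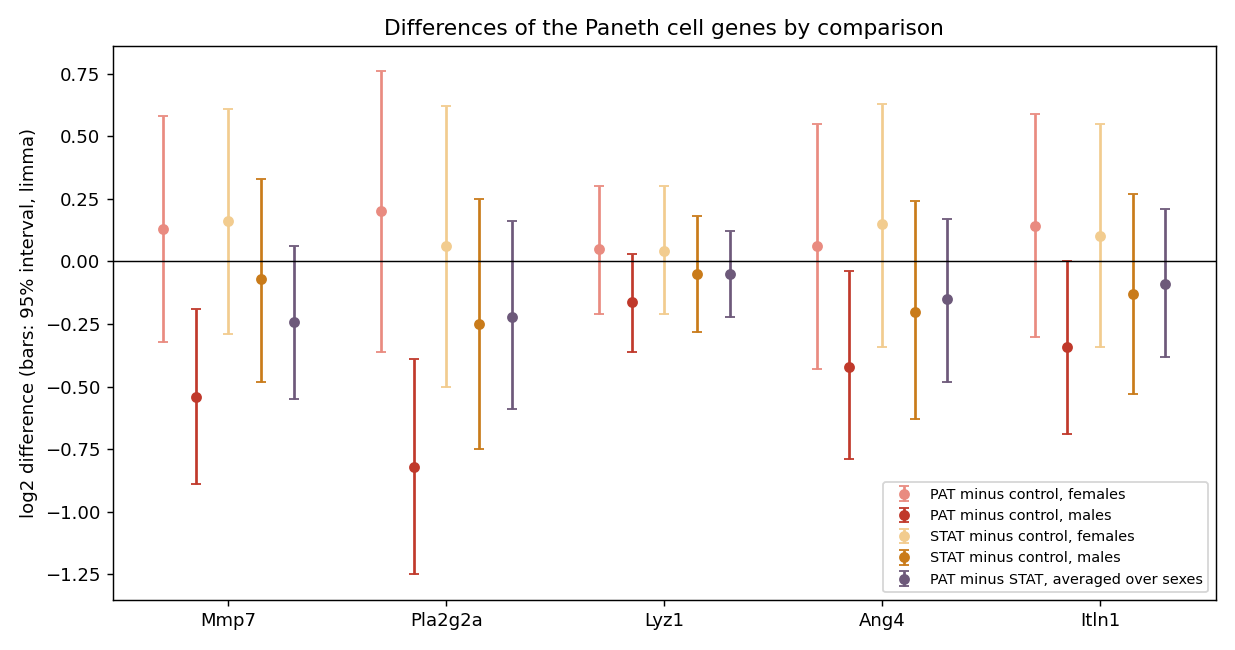
Log2 differences of the 5 genes in 5 comparisons, with 95% intervals from limma as bars and the zero line drawn. Only the intervals for PAT males of Mmp7, Pla2g2a and Ang4 lie wholly below 0, at -0.54, -0.82 and -0.42, and the intervals for STAT all cross 0.

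In PAT females none of the 5 genes passed the test, and all 5 differences were positive, while 51.2% of those over all genes were negative. Mmp7 differed by 0.13 ± 0.22, Pla2g2a by 0.2 ± 0.27, Lyz1 by 0.05 ± 0.12, Ang4 by 0.06 ± 0.23 and Itln1 by 0.14 ± 0.21 on the log2 scale (SE, 3 PAT against 3 control females). In limma 0 of the 5 were called, and 0 had an unadjusted p under 0.05, where 3.35% of all genes were called and 20.9% had such a p. The interval for Pla2g2a, the widest of the 5, ran from -0.36 to 0.76. The sign rested on single arrays: without PAT female 1 the 5 differences were -0.01 for Mmp7, -0.03 for Pla2g2a, -0.04 for Lyz1, -0.18 for Ang4 and -0.1 for Itln1, and without control female 3 they were -0.02 for Lyz1 and -0.07 for Ang4. An exact permutation test of 3 against 3 cannot go below 0.1.

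The difference between the sexes was tested as an interaction, the female PAT effect minus the male one. It was 0.67 ± 0.27 for Mmp7 and 1.02 ± 0.34 for Pla2g2a (log2, SE), with unadjusted limma p of 0.0237 and 0.00686 and adjusted p of 0.21 and 0.15. It was 0.21 ± 0.15 for Lyz1, 0.47 ± 0.3 for Ang4 and 0.49 ± 0.27 for Itln1. None of the 5 passed, although 2 of them had an unadjusted p under 0.05; 1 gene in all passed, or 0.00550%, while 18.6% of all genes had an unadjusted p under 0.05. Averaged over the sexes, the PAT effect was -0.2 ± 0.14 for Mmp7, -0.31 ± 0.17 for Pla2g2a, -0.06 ± 0.08 for Lyz1, -0.18 ± 0.15 for Ang4 and -0.1 ± 0.14 for Itln1. In limma 0 of 5 were called there, against 11.0% of all genes, and 0 of 5 had an unadjusted p under 0.05, against 24.1%.

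In STAT mice the 5 genes gave no call. The sex-averaged differences from controls ran from -0.09 ± 0.18 for Pla2g2a to 0.04 ± 0.15 for Mmp7 (log2, SE), and the interval for Mmp7 ran from -0.26 to 0.35. In STAT males the differences were -0.07 for Mmp7, -0.25 for Pla2g2a, -0.05 for Lyz1, -0.2 for Ang4 and -0.13 for Itln1, and in STAT females they were 0.16, 0.06, 0.04, 0.15 and 0.1 in the same order. In limma 0 of 5 genes had an unadjusted p under 0.05 in any of these comparisons. Over all genes 0 were called (0.00%), although 13.1% had an unadjusted p under 0.05 in the average over the sexes, 15.7% in males and 3.31% in females. The female and male STAT effects differed by between 0.09 and 0.34 (log2), with 0 of 5 genes called in limma and 0 with an unadjusted p under 0.05, against 0.00% and 3.44% of all genes.

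The STAT males differed among themselves. STAT male 1 was the lowest of the 22 arrays for Lyz1, Ang4 and Itln1, and STAT males 2 and 3, the arrays with the high beta-actin difference, were above the control male mean for Lyz1, Ang4 and Itln1. STAT males 2 and 3 also stood apart in mean marker levels, each gene centred on its own mean. For 12 enterocyte markers these were -0.94 and -0.58, against -0.29 to 0.14 over control males. For 8 ileal markers they were -0.75 and -0.64, against -0.36 to 0.16. For 12 stem cell markers they were 0.32 and 0.35, against -0.02 to 0.08. The part of these markers in the STAT values was not tested. Without STAT male 1 the STAT difference in males was 0.15 for Ang4 and 0.16 for Itln1. Left with STAT male 1 alone, assumed to vary like the other groups, it was -0.88 ± 0.25 for Ang4 and -0.71 ± 0.24 for Itln1 (SE), with limma adjusted p of 0.56 and 0.85. Without STAT male 1, 10.8% of all genes were called in STAT males, and still 0 of the 5.

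PAT and STAT were also set against each other, averaged over the sexes. The differences were -0.24 ± 0.15 for Mmp7, -0.22 ± 0.18 for Pla2g2a, -0.05 ± 0.08 for Lyz1, -0.15 ± 0.16 for Ang4 and -0.09 ± 0.14 for Itln1 (log2, SE). In limma 0 of 5 were called and 0 had an unadjusted p under 0.05, against 5.88% of all genes called and 20.7% with such a p. The interval for Mmp7 ran from -0.55 to 0.06. Without STAT males 2 and 3 the signs of Lyz1, Ang4 and Itln1 turned, to 0.11, 0.19 and 0.2.

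Among controls, females had lower means than males for all 5 genes, as for 51.3% of all genes, and none of the differences passed. Pla2g2a was at 8.66 ± 0.34 in control females (SD, n = 3) and 9.13 ± 0.53 in control males (SD, n = 5), a log2 difference of -0.48 ± 0.24 (SE) with an unadjusted limma p of 0.0594 and an adjusted p of 0.43. The others ran from -0.2 for Ang4 to -0.08 for Itln1. In this comparison 0.0550% of all genes were called in limma, 0 of the 5, and 0 of the 5 had an unadjusted p under 0.05, against 12.5% of all genes.

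A list of 29 further Paneth cell genes held granule products and also genes of other roles, such as Nupr1, Copz2, Cd24a and Thbs1. Of them 23 were measured, and 3 fell while 0 rose in PAT males, where 6.68% of all genes were called as lower, with a list median of -0.22 against -0.01 over all genes. Reg3g, a lectin that kills Gram-positive bacteria and is made by enterocytes too, averaged 13.84 ± 0.14 in PAT males and 14.48 ± 0.19 in control males (SD, n = 5 each), a log2 difference of -0.65 ± 0.13 (SE, limma adjusted p = 0.0048). Nupr1, a stress-response factor, fell by 0.57 ± 0.14 (log2, SE, limma adjusted p = 0.015). Ccl6, a chemokine, fell by 0.36 ± 0.08 (log2, SE, limma adjusted p = 0.011). Leaving out any 1 array kept these 3 calls.

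Reg3g also fell in PAT females, where it averaged 13.61 ± 0.4 in PAT and 14.29 ± 0.19 in controls (SD, n = 3 each), a log2 difference of -0.68 ± 0.17 (SE, limma adjusted p = 0.033). That call was lost on leaving out any 1 of 3 of the 6 female arrays, with a limma adjusted p of up to 0.17, with only the groups compared (0.1), with the Gapdh measure (0.13) and with the title number in the model (0.2). In females it was the only 1 of 23 called, where 3.35% of all genes were called, and the list median was -0.01. Averaged over the sexes Reg3g, its relative Reg3b (-0.25 ± 0.07) and Ccl6 (-0.25 ± 0.07) fell, 3 of 23 genes, where 11.0% of all genes were called (log2, SE, limma adjusted p of 0.00051, 0.015 and 0.021). Reg3b lost its call when PAT female 1 was left out (limma adjusted p = 0.051) and Ccl6 without control female 1 (0.068) or PAT female 3 (0.058), and Reg3b and Ccl6 lost theirs with the Gapdh measure (0.2 and 0.058) or the title number in the model (0.083 and 0.2).

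Against STAT, 4 of the 23 genes were lower in PAT, averaged over the sexes: Mptx1, a pentraxin of Paneth cells (-0.44 ± 0.12), Reg3g (-0.64 ± 0.11), Reg3b (-0.25 ± 0.07) and Ccl6 (-0.32 ± 0.07) (log2, SE, limma). Over all genes 5.88% were called in this comparison. Leaving out 1 array ended the Mptx1 call in 8 of 14 fits and the Reg3b call in 6, with limma adjusted p of up to 0.12 and 0.077. Without STAT males 2 and 3, which left STAT male 1 as the only STAT male, Reg3g alone kept its call among them. In STAT against controls 0 of 23 were called by limma.

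The alpha-defensins, the main antimicrobial peptides of mouse Paneth cells, were measured by 3 probe sets with a single symbol, and 2 further probe sets carry several symbols and are not named. None of these 3 was called in PAT males, where 9.02% of all genes were called, and the median was -0.09. Defa31 averaged 14.87 ± 0.05 in PAT males and 14.91 ± 0.03 in control males (SD, n = 5 each), close to the highest gene level in the table. Defa39 averaged 11.68 ± 0.45 in PAT males and 12.11 ± 0.39 in control males (SD, n = 5 each), a log2 difference of -0.44 ± 0.32 (SE). In PAT females the median was 0.29, and Defa39 reached 13.64 on its highest array. Alpha-defensin genes are many and nearly identical, so their probe sets may read several of them.

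Among 14 regulators of the secretory lineage, 4 fell and 1 rose in PAT males, where 9.02% of all genes were called, with a median of -0.16. Atoh1, which commits cells to the secretory fate, averaged 9.68 ± 0.12 in PAT males and 9.99 ± 0.11 in control males (SD, n = 5 each), a log2 difference of -0.32 ± 0.07 (SE, limma adjusted p = 0.012). Gfi1, which acts below Atoh1 in Paneth and goblet cells, averaged 5.78 ± 0.48 in PAT males and 6.6 ± 0.23 in control males (SD, n = 5 each), a log2 difference of -0.81 ± 0.17 (SE, limma adjusted p = 0.0052). Gfi1 was dim: the median over all probe sets of an array ran from 5.68 to 5.79, so its mean in PAT males lay at that level. Sox9, needed for Paneth cells to form, fell by 0.44 ± 0.12 (log2, SE, limma adjusted p = 0.027). Notch1, a receptor that holds back the secretory fate, fell by 0.57 ± 0.14 (log2, SE, limma adjusted p = 0.015).

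The regulator that rose was Klf4, a factor of goblet cells and of mature epithelium, at 13.05 ± 0.38 in PAT males and 12.27 ± 0.12 in control males (SD, n = 5 each), a log2 difference of 0.78 ± 0.17 (SE, limma adjusted p = 0.0076). The Sox9 call was lost on leaving out any 1 of 4 of the 10 arrays, with an adjusted p of up to 0.093, and with the mean of its probe sets, at -0.27 (limma adjusted p = 0.062), repeated quantile normalization, only the groups compared or the Gapdh measure, and the Notch1 call without PAT male 2, at 0.056. Atoh1 lost its call with the Gapdh measure in the model, at -0.23 (limma adjusted p = 0.088). In PAT females the only regulator called was Hes1, a Notch target, which rose by 0.65 ± 0.16 (log2, SE, limma adjusted p = 0.032), a call lost without any 1 of 4 of the 6 arrays and with the Gapdh measure or the title number in the model. The limma interactions, female minus male, of Gfi1 (0.8, adjusted p = 0.15) and Sox9 (0.63, adjusted p = 0.14) did not pass, so the sexes were not shown to differ.

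Averaged over the sexes, 1 of the 14 regulators fell and 3 rose, where 11.0% of all genes were called. The list median was 0.06. Atoh1 fell by 0.22 ± 0.06, and Klf4 (0.59 ± 0.14), Hes1 (0.41 ± 0.1) and Xbp1 (0.17 ± 0.05), a factor of secretory capacity, rose (log2, SE, limma). Hes1 and Xbp1 had like differences in STAT, not called: 0.41 and 0.19 in males and 0.44 and 0.18 in females. Between PAT and STAT, averaged over the sexes, both differed by -0.02. Leaving out 1 array ended the Xbp1 call in 13 of 16 fits and the Atoh1 call in 2, with limma adjusted p of up to 0.11 and 0.088. The calls of Atoh1, Hes1 and Xbp1 were lost with the Gapdh measure (limma adjusted p of 0.34, 0.075 and 0.2) or the title number in the model. Of the niche signals, the growth factors and Notch ligands that Paneth cells give to stem cells and the receptors beside them, 11 of 12 were measured. In PAT males 0 of the 11 were called, where 9.02% of all genes were called, and the list median was 0.06. Against STAT, Bst1, an enzyme of the niche, was higher in PAT by 1.2 ± 0.32 (log2, SE, limma adjusted p = 0.029), a call lost without STAT males 2 and 3 and in 5 of 14 fits that left out 1 array. Klf4 was higher (0.87 ± 0.15) and Notch1 lower (-0.43 ± 0.12) in PAT than in STAT (log2, SE, limma adjusted p of 0.0012 and 0.042). The fit without STAT males 2 and 3 had STAT male 1 as its only STAT male. It gave 0.59 for Klf4 and -0.36 for Notch1, and neither kept its call. The Notch1 call was also lost in 9 of 14 fits that left out 1 array.

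**Figure D4:**
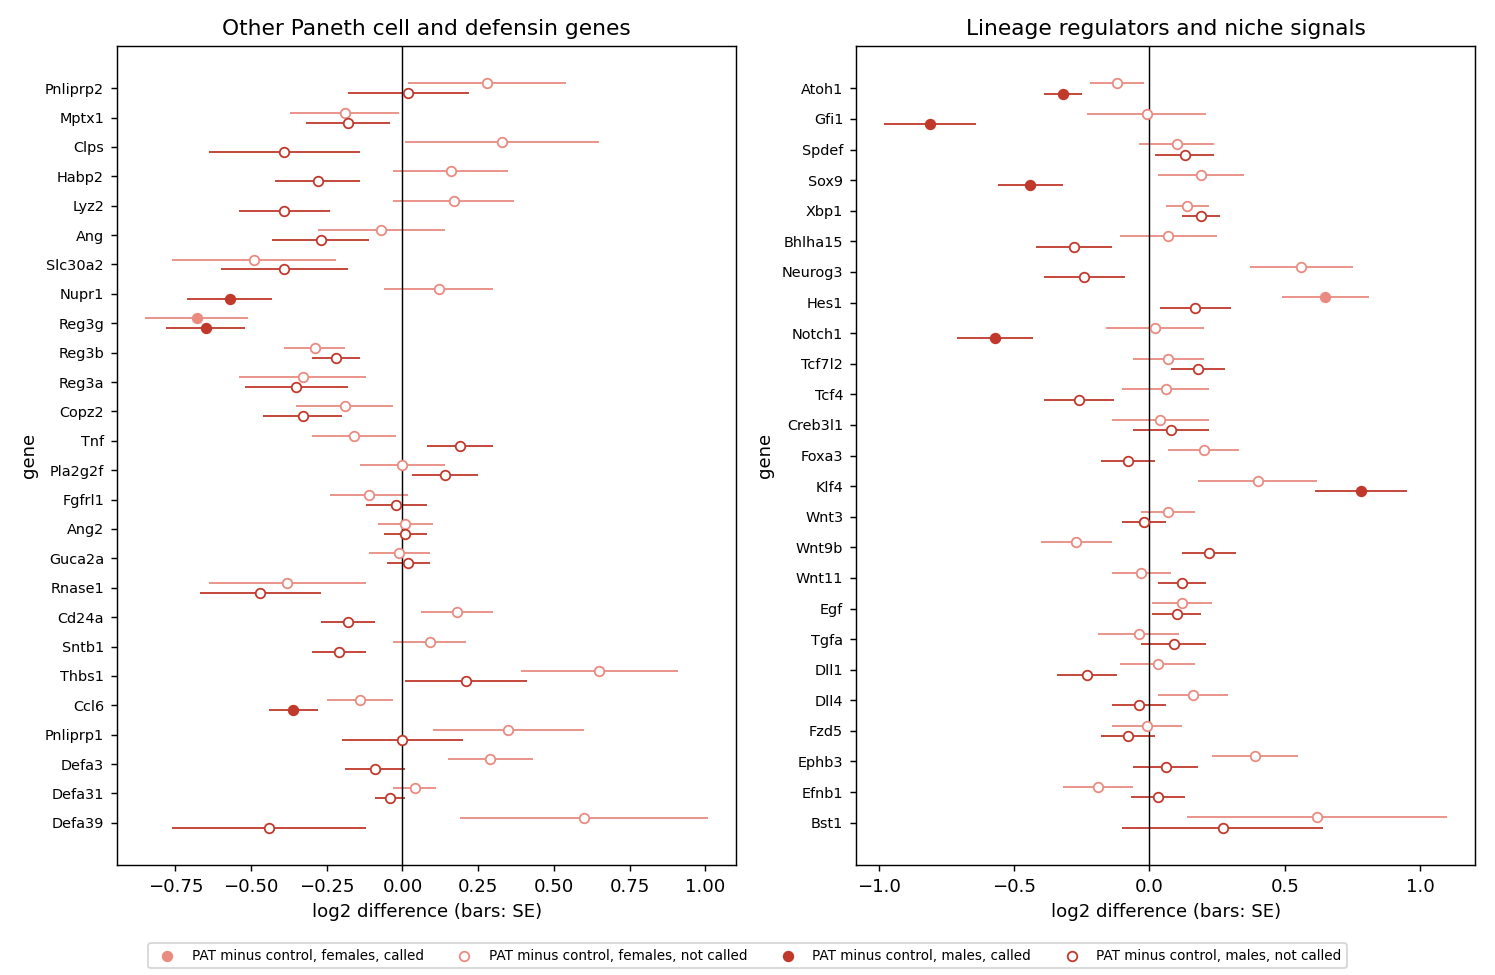
Log2 differences between PAT and control for other Paneth cell and defensin genes (left) and for lineage regulators and niche signals (right), in females (light) and males (dark), with SE as bars. Filled points were called at an adjusted p under 0.05; in males Gfi1 at -0.81 and Reg3g at -0.65 are lowest among the called genes and Klf4 at 0.78 is the one called as higher.

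Genes of autophagy and bacterial sensing, which Paneth cells use in granule release, gave 2 lower of 8 measured in PAT males, the adaptor Myd88 (-0.34 ± 0.09) and the secretory GTPase Rab2a (-0.22 ± 0.06), with a median of -0.15 (log2, SE, limma). Both lost their calls with only the groups compared (limma adjusted p of 0.085 and 0.081) and with the Gapdh measure, Myd88 without any 1 of 4 arrays and Rab2a without control male 1. In STAT males Myd88 differed from controls by -0.31 ± 0.11 and Rab2a by -0.03 ± 0.07 (log2, SE), neither called. Between PAT and STAT, averaged over the sexes, Myd88 differed by -0.1 ± 0.08 and was not called, and Rab2a by -0.17 ± 0.05 and was called (log2, SE, limma). Markers of other cells gave the following values in PAT males, where 9.02% of all genes were called. Of 12 stem cell markers 2 fell, Ascl2 (-0.85 ± 0.16) and Znrf3 (-0.46 ± 0.13), with a median of -0.27, and the mean of the list, each gene centred, had a range of -0.36 to -0.07 over PAT males and -0.02 to 0.08 over control males. Of 14 goblet cell markers 1 fell, Galnt12 (-0.31 ± 0.08), with a median of -0.08. The goblet list mean had a range of -0.29 to -0.12 over PAT males and -0.07 to 0.18 over control males. That mean includes Retnlb, which had the largest difference of the list, -2.91 ± 0.97, and was not called (limma adjusted p = 0.066). The Ascl2 call was kept in every fit that left out 1 array, while Znrf3 lost its call without any 1 of 4 arrays and Galnt12 without control male 1. The part of these markers in the result was not tested.

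Of 12 enterocyte markers 2 rose in PAT males, the lipid carriers Fabp1 (1.46 ± 0.35) and Apoa4 (1.43 ± 0.42). In that list 6 of the 12 differences were negative and the median was -0.03. Of 8 ileal markers 1 rose, the bile acid responsive hormone Fgf15 (2.14 ± 0.64), with a list median of 0.22. Enterocyte list means overlapped, with -0.15 to 0.36 over PAT males and -0.29 to 0.14 over control males. Of 10 tuft and enteroendocrine markers 1 rose, Pou2f3 (0.29 ± 0.09), while 6 of the 10 differences were negative and the list median was -0.13. Fabp1 kept its call in every fit that left out 1 of the 10 arrays, while Apoa4 lost it in 7 of these fits, Fgf15 in 6 and Pou2f3 in 8, with limma adjusted p of up to 0.1, 0.11 and 0.13. Of 13 macrophage and neutrophil, 9 mast cell and 10 pancreatic acinar markers 0 were called by limma.

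Where a member had more than 1 probe set, they moved the same way in PAT males: the 3 of Lyz1 differed by between -0.19 and -0.16 and the 2 of Ang4 by -0.5 and -0.42 (log2). The probe sets of Lyz1 may also read Lyz2, a near-identical lysozyme gene, and those of Ang4 and Itln1 their close relatives, so the values of these genes are uncertain to that extent. Lyz2 itself differed by -0.39 ± 0.15 in PAT males (log2, SE, limma adjusted p = 0.12).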

How the data were processed

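RNA from 22 mouse ileum samples was biotin-labelled with an Affymetrix kit and measured on 1-colour arrays, per the labels' protocols. The authors deposited log2 expression levels per probe set; the submitters' processing notes name RMA and affy, and the sources used here give no version. RMA removes background, brings arrays to a like scale and combines the probes of a set. Dim values are compressed by it, which understates their fold changes, and it makes no detection calls.

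Gene symbols came from the platform annotation. Of 45101 probe sets, 34945 had 1 symbol, 932 several, 9160 none and 64 were controls of the array maker. The brightest probe set of each gene was kept, which left 18193 genes. A linear model with 1 mean per treatment and sex was fitted with limma 3.58.1 in R 4.3.3 to all 22 arrays (16 residual degrees of freedom, 4.88 added by the empirical Bayes step). P-values are two-sided and adjusted by Benjamini-Hochberg over all genes, with a call where the adjusted p was under 0.05. The fit was tested on simulated data first. Single values were also compared by exact permutation within sex. Genes of the lists were named when called (up to 4 per list and comparison) or among the 6 with the highest mean, and a few further list members, chosen after their values were seen, are given with their values; similar genes are the 5 with the highest r. The members and lists were chosen with earlier results of these data known. Title numbers are not shared between groups.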

Additional observations from a re-analysis of the deposited data

How the results depend on the processing

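No paired analysis was possible because no title number is shared between groups. Alternatives averaged the probe sets of each gene, tested all probe sets singly, kept genes whose mean reached 6, repeated quantile normalization, centred medians, fitted only the groups compared, added the Gapdh difference, array weights or the title number, or left out each array in turn; the beta-actin difference and the joint omission of STAT males 2 and 3 were chosen after seeing the data. Causes of changes were not tested, and the number of arrays limits all of them. Omitting STAT males 2 and 3 left STAT male 1 as the only STAT male.

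In PAT males 2 of the 5 genes were called, and 1 with averaged or single probe sets, quantile normalization, only the groups compared, array weights or the title number; Mmp7 lost its call there, at -0.54, -0.54, -0.52, -0.54, -0.5 and -0.52. With the Gapdh or the beta-actin difference 4 were called. Leaving out 1 array gave 0 to 2, with 0 only without control male 2. In PAT against STAT, array weights gave 1 call, Mmp7 at -0.39. The other counts of called members stayed at 0.

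Sign changes were confined, among these alternatives, to differences that were not called. In PAT females the Gapdh difference gave -0.05 for Mmp7, -0.06 for Lyz1, -0.22 for Ang4 and -0.09 for Itln1, array weights -0.08 for Ang4, and beta-actin -0.01 for Lyz1 and -0.07 for Ang4. In STAT averaged over the sexes, Mmp7 was -0.12 with Gapdh, -0.2 with beta-actin and -0.18 without STAT males 2 and 3; Lyz1 was 0.01 with averaged probe sets, 0.02 with quantile normalization and 0.06 with array weights, which gave 0.11 for Ang4 and 0.12 for Itln1, and the title number gave 0.02 for Pla2g2a and 0.03 for Itln1. In STAT males array weights gave 0.16 for Mmp7, 0.02 for Pla2g2a, 0.09 for Lyz1, 0.08 for Ang4 and 0.14 for Itln1. In STAT females Pla2g2a was -0.02 with array weights and -0.0 with beta-actin, which gave -0.01 for Lyz1. In PAT against STAT, beta-actin gave 0.05 for Lyz1, 0.09 for Ang4 and 0.12 for Itln1, and omitting STAT males 2 and 3 gave 0.11, 0.19 and 0.2. For the female minus male STAT effect array weights gave -0.01 for Mmp7, -0.04 for Pla2g2a, -0.05 for Lyz1 and -0.05 for Itln1, and for Itln1 between control sexes 0.0.

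Leaving out 1 array, PAT female differences ranged from -0.01 to 0.23 for Mmp7, -0.03 to 0.35 for Pla2g2a, -0.04 to 0.12 for Lyz1, -0.18 to 0.19 for Ang4 and -0.1 to 0.29 for Itln1. STAT differences averaged over the sexes ranged from -0.03 to 0.15 for Mmp7, -0.19 to 0.0 for Pla2g2a, -0.05 to 0.08 for Lyz1, -0.13 to 0.15 for Ang4 and -0.1 to 0.13 for Itln1. In STAT males they ranged from -0.22 to 0.15 for Mmp7, -0.14 to 0.11 for Lyz1, -0.4 to 0.15 for Ang4 and -0.3 to 0.16 for Itln1, and in STAT females from -0.13 to 0.19 for Pla2g2a, -0.02 to 0.11 for Lyz1 and -0.02 to 0.19 for Itln1. The female minus male STAT effect ranged from -0.07 to 0.18 for Lyz1 and -0.05 to 0.4 for Itln1, and the control sex difference of Itln1 from -0.17 to 0.04.

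Counts of called genes over the whole array moved more than the members' counts. For PAT averaged over the sexes 1999 genes were called, and 3089 probe sets, 756 genes with Gapdh and 589 with the title number. In PAT males 1641 genes were called, 951 with only the groups compared, 1050 with Gapdh, 2530 single probe sets, and 833 to 2089 genes without 1 array. In PAT females 610 were called (3.35%), 0.781% of all genes with Gapdh, 1524 genes with array weights, 45 with the title number, and 123 to 751 without 1 array. For STAT averaged over the sexes 0 were called, 1 with only the groups compared, 2288 with array weights, and 0 to 1053 without 1 array; in STAT males 0 were called, 1 single probe set, 4069 genes with array weights, 9 without STAT males 2 and 3, and 0 to 1973 without 1 array, the highest in both without STAT male 1. Between PAT and STAT 1069 were called, 1755 single probe sets, 516 genes with only the groups compared, 2631 with array weights, 503 without STAT males 2 and 3, and 633 to 1676 without 1 array. The PAT interaction gave 1 call, 0 to 2 under the other settings but array weights (165), and 0 to 59 without 1 array. The control sexes gave 10, with array weights 332, up to 26 under the others, and 7 to 17 without 1 array.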

Other observations

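Averaged over the sexes, members of other lists changed in PAT against controls. The goblet cell genes Retnlb, a resistin-like antimicrobial protein, and Muc13, a membrane mucin, fell by 2.85 ± 0.8 and 0.4 ± 0.11 on the log2 scale (SE, limma adjusted p of 0.024 and 0.022), 2 of 14 measured, where 11.0% of all genes were called. Irgm1, a GTPase of autophagy, fell by 0.42 ± 0.09 (limma adjusted p = 0.0045). It was 1 of 3 called as lower among 8 measured genes of autophagy and sensing, with a list median of -0.1. Cd14, a receptor for bacterial lipopolysaccharide, fell by 0.59 ± 0.15 (limma adjusted p = 0.013). It was the only 1 called of 13 macrophage and neutrophil markers, where 5 differences were negative and the list median was 0.07. Against STAT, Retnlb was lower in PAT by a log2 difference of -3.0 ± 0.84 (SE, limma adjusted p = 0.039). Leaving out PAT female 1 ended the calls of Retnlb (-2.31, limma adjusted p = 0.085), Muc13 (-0.34, 0.078) and Cd14 (-0.48, 0.051) against controls, and so did leaving out control female 3 for Retnlb (0.056) and Muc13 (0.074) and control female 2 for Retnlb (0.054); Irgm1 kept its call in all 16 such fits. With the Gapdh measure or the title number in the model Retnlb, Muc13 and Cd14 were not called. Against STAT, the Retnlb call was lost in 8 of 14 fits that left out 1 array, with values between -3.77 and -1.98.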
